A study of Mus musculus with 8 samples.

Results

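The 4 *Pfkfb* genes and *Tigar* set the level of fructose 2,6-bisphosphate, and their transcripts were followed here in mouse pancreas. *Pfkfb1*, *Pfkfb2*, *Pfkfb3*, *Pfkfb4*, and *Tigar* were found by gene name, and each name matched 1 row, so the members are 5 of the 48709 genes listed in every library. RNA-Seq was performed on whole pancreas of male mice aged 8 weeks, 24 hours after treatment, and the study asked what the loss of *Pfkfb3* changes in severe acute alcoholic pancreatitis. There were 4 groups of 2 libraries, described by the submitters as biological replicates. WT and cKO mice received either saline or palmitoleic acid (POA) with ethanol, which gives the fatty acid ethyl ester model of severe pancreatitis (FAEE-SAP). The cKO mice carried *Pfkfb3* fl/fl and *Pdx1*-Cre, whereas the WT mice were purchased from a vendor and carried neither. The 2 genotypes therefore also differ in Cre, in the loxP sites, and in colony, and these cannot be told apart. *Pdx1*-Cre acts in cells that descend from the pancreatic epithelium (acinar, duct, and islet cells), and leukocytes, vessels, and fibroblasts of the cKO pancreas keep *Pfkfb3*. Per the study's methods, the mice were fasted before treatment, and the FAEE-SAP mice also received the analgesic buprenorphine.

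PFKFB enzymes carry 2 opposed activities on 1 chain. The kinase domain makes fructose 2,6-bisphosphate from fructose 6-phosphate and the phosphatase domain breaks it down, and this sugar phosphate switches on phosphofructokinase 1 (the committed step of glycolysis) and switches off fructose 1,6-bisphosphatase. PFKFB3 has by far the highest kinase activity relative to phosphatase, PFKFB1 is the liver form, PFKFB2 is abundant in heart, and PFKFB4 is prominent in testis and in tumors. TIGAR, a p53-inducible protein, has only a phosphatase domain of the same kind and lowers glycolytic flow in favor of the pentose phosphate pathway.

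The floxed part of *Pfkfb3* is shown first because it decides what a value per gene can say about the genotype. *Pfkfb3* (ENSMUSG00000026773) lies on chromosome 2 (GRCm38, 11471433 to 11554077, minus strand), and its transcript Pfkfb3-206 has 15 exons and 520 codons. Cre recombination removes the second and the third exon. Exon 2 (126 bases, chr2:11493903-11494028) and exon 3 (97 bases, chr2:11492560-11492656) are both wholly coding. They are printed 5′ to 3′ from the GENCODE vM21 transcript, with the 8 codons of the Walker A (P-loop) motif, which binds the ATP of the kinase reaction, in capitals.
Pfkfb3 exon 2: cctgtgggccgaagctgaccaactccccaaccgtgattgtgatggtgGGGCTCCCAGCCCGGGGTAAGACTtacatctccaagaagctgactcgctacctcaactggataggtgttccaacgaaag
Pfkfb3 exon 3: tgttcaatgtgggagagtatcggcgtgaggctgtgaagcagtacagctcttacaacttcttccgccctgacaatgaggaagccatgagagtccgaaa
The 2 exons hold 223 bases, 14.3% of the coding sequence but 2.95% of the exonic length of the gene. They hold codons 26 to 100 and include the whole P-loop. Exon 1 keeps 25 codons, and since 223 leaves a remainder of 1 when divided by 3, joining exon 1 to exon 4 on paper gives a stop at codon 30. Transcripts without the 2 exons, where they are kept by the cell, would still be counted over nearly all of the exonic length. Whether such transcripts are kept or lost was not tested. The RPKM of *Pfkfb3* alone therefore does not test the genotype labels, and no value of the deleted exons was available here.

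The other members are shown at the same 2 places, because the motifs separate the enzymes with both activities from the one with a single activity. The Walker A codons, in capitals with 1 codon on either side, were found once in each *Pfkfb* coding sequence and not in *Tigar*.
Pfkfb1 codons 26 to 33: gtgGGTTTACCAGCTCGAGGCAAGACCtac
Pfkfb2 codons 47 to 54: attGGCTTGCCAGCCCGGGGTAAAACTtat
Pfkfb3 codons 42 to 49: gtgGGGCTCCCAGCCCGGGGTAAGACTtac
Pfkfb4 codons 46 to 53: gtgGGCCTGCCAGCCCGGGGCAAGACCtac
The codons of the histidine phosphatase motif, in capitals with 3 codons on either side, were found once in all 5 genes.
Pfkfb1 codons 235 to 238: tacctatgcCGACATGGTGAGagtgaactc
Pfkfb2 codons 258 to 261: tacctttgcCGGCACGGCGAGagcgagttc
Pfkfb3 codons 253 to 256: tacctgtgtCGGCATGGCGAGaatgagtac
Pfkfb4 codons 256 to 259: tacctctgcCGGCATGGGGAGagcgagcta
Tigar codons 10 to 13: accgttatcCGCCATGGTGAAacaagactt
The motif begins in exon 8 of *Pfkfb1*, *Pfkfb3*, and *Pfkfb4*, in exon 9 of *Pfkfb2*, and in exon 1 of *Tigar*, all outside the floxed part. The 4 *Pfkfb* coding sequences encode the same amino acid at 65.7% to 75.2% of the positions aligned between pairs, *Pfkfb1* and *Pfkfb4* being the closest pair, and at 26.4% to 30.9% of those aligned with *Tigar*. The transcripts shown encode 448 codons for *Pfkfb1*, 518 for *Pfkfb2*, 469 for *Pfkfb4*, and 269 for *Tigar*. In GRCm38, *Pfkfb1* lies on chromosome X (150588229 to 150643878, plus strand), *Pfkfb2* on chromosome 1 (130689182 to 130729253, minus strand), *Pfkfb4* on chromosome 9 (108991778 to 109032228, plus strand), and *Tigar* on chromosome 6 (127085116 to 127109557, minus strand).

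**Figure D1:**
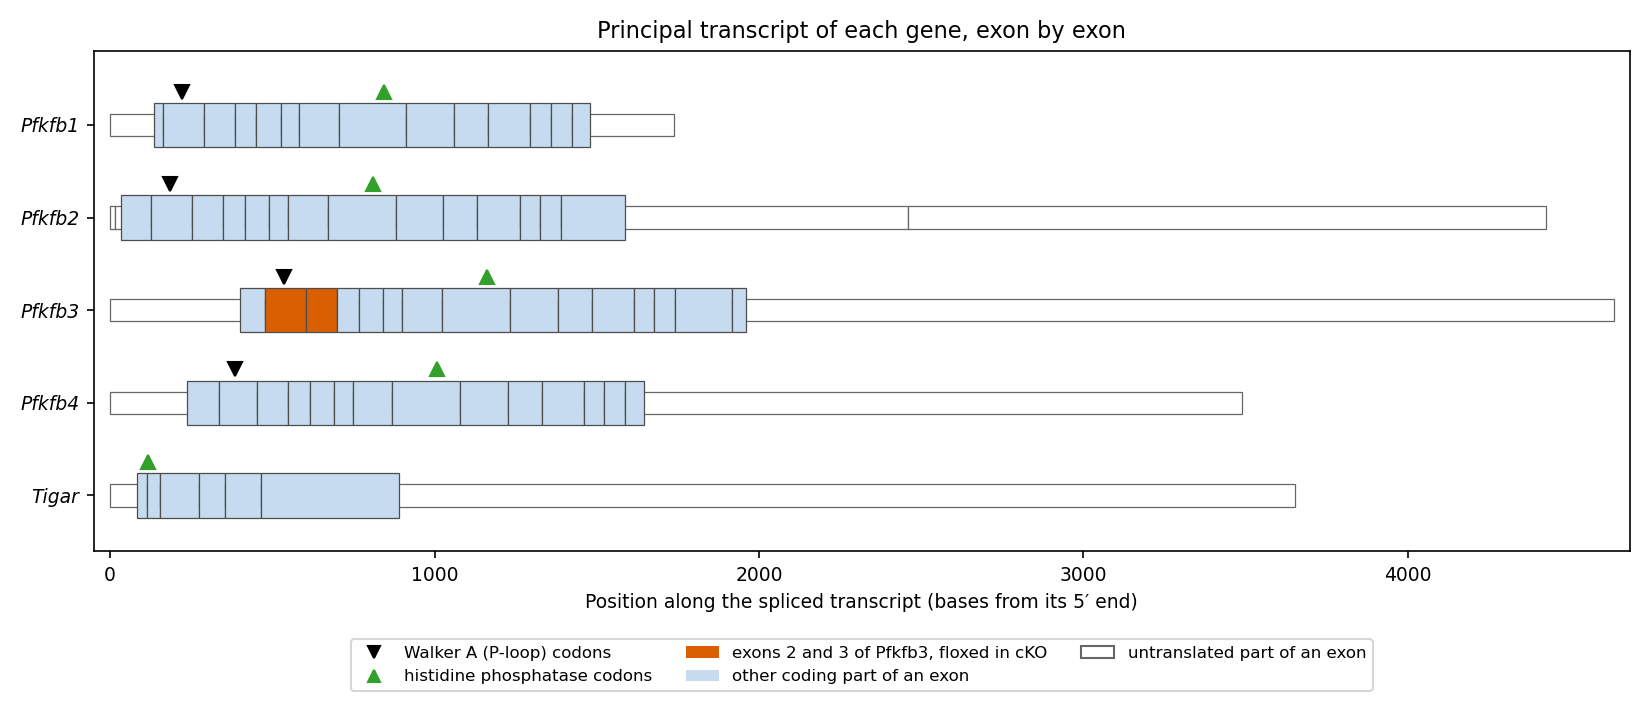
Principal transcript of each member drawn to scale in bases from its 5′ end, with coding parts as tall boxes and untranslated parts as low boxes. The 2 floxed exons of *Pfkfb3* (orange) hold 223 bases and include its Walker A codons (black triangle), while the histidine phosphatase codons (green triangle) of all 5 genes lie elsewhere.

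*Pfkfb3* was the most abundant member in 7 of the 8 libraries. Levels are RPKM, reads per kilobase of exon scaled to the size of the library, so genes of different length can be compared. As deposited, *Pfkfb3* was 1.24 and 1.46 in the WT mice given saline and 0.546 and 1.39 in the cKO mice given saline. With FAEE-SAP, WT gave 3.75 and 6.22, whereas cKO gave 1.82 and 2.75. Every FAEE-SAP library was above every saline library, as for 45.4% of genes tested, and both cKO FAEE-SAP libraries were below both WT FAEE-SAP libraries, as for 81.3% of genes. Behind these values stood 156 reads in cKO saline replicate 1 and 266 to 1539 reads in the other libraries, worked out from the RPKM.

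RPKM is a share of the library, and the libraries did not share it alike. Per library, the top 10 genes held 59.6% to 65.0% of the reads with saline, 42.0% and 43.8% for WT with FAEE-SAP, and 56.1% and 54.0% for cKO with FAEE-SAP. Over all genes tested, the median of the log2 fold changes as deposited was 1.24 for FAEE-SAP against saline in WT, 0.57 in cKO, and -0.91 for cKO against WT with FAEE-SAP. The values were therefore also divided by the median of each library's ratios to the geometric mean, with factors of 0.621 to 0.866 for saline, 2.02 and 1.94 for WT FAEE-SAP, and 1.05 and 0.975 for cKO FAEE-SAP. Below, "scaled" means divided in this way, and fold changes are differences of log2(scaled RPKM + 0.1), which understate the changes of low genes. A gene was called when its change was at least 2-fold and its adjusted p-value was under 0.05.

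After scaling, *Pfkfb3* read 1.70 and 1.69 for WT with saline, 0.88 and 2.10 for cKO with saline, 1.85 and 3.21 for WT with FAEE-SAP, and 1.74 and 2.82 for cKO with FAEE-SAP. The 2 WT FAEE-SAP libraries stayed above the 2 WT saline libraries, as for 29.7% of genes, and the groups overlapped in the other 5 comparisons of groups. Its lowest value, in cKO saline replicate 1, was below that of every other library.

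None of the 4 members tested was called for FAEE-SAP against saline in WT (limma, Benjamini-Hochberg adjustment), where 6.93% of the 10894 genes tested were called. At an unadjusted p-value under 0.05 there was 1 member, *Pfkfb2*, beside 3013 of the 10894 genes. *Pfkfb3* had a log2 fold change of 0.50 (SE 0.30, 95% interval -0.24 to 1.24, adjusted p = 0.339, limma), which became 0.92 without WT FAEE-SAP replicate 1 and 0.16 without replicate 2. In cKO it was 0.68 (SE 0.45, -0.50 to 1.85, adjusted p = 0.644, limma), or 0.11 without cKO saline replicate 1, 1.26 without cKO saline replicate 2, and 0.41 without cKO FAEE-SAP replicate 2. None of the 3 members tested there was called, against 0.0531% of 9423 genes. None of the 3 had an unadjusted p-value under 0.05, beside 888 of all genes. Over both genotypes *Pfkfb3* was 0.58 higher with FAEE-SAP on the log2 scale (SE 0.29, -0.08 to 1.24, adjusted p = 0.249, limma) and 0.33 higher without cKO saline replicate 1, and none of 4 members was called (1 at an unadjusted p-value under 0.05, beside 2850 of all genes), against 2.72% of 11133 genes.

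The comparisons of genotype gave no call for a member either. For cKO against WT with FAEE-SAP, 1.27% of 11008 genes were called and 0 of 4 members, with 1 member and 2148 of all genes at an unadjusted p-value under 0.05. *Pfkfb3* had a log2 fold change of -0.15 (SE 0.37, 95% interval -1.06 to 0.77, adjusted p = 0.868, limma). It was -0.55 without WT FAEE-SAP replicate 1, 0.23 without WT FAEE-SAP replicate 2, 0.22 without cKO FAEE-SAP replicate 1, and -0.51 without cKO FAEE-SAP replicate 2, so 1 library decided its sign. With saline it was -0.31 (SE 0.40, -1.33 to 0.72, adjusted p = 0.999, limma). There 0 of 8715 genes were called (0%), 187 had an unadjusted p-value under 0.05, and neither of the 2 members tested was among those 187. Leaving out cKO saline replicate 1 turned the saline difference of *Pfkfb3* to 0.26, and leaving out cKO saline replicate 2 gave -0.88. Over both treatments the difference was -0.21 (SE 0.29, -0.87 to 0.45, adjusted p = 0.789, limma), with 0% of 11133 genes called, 1209 at an unadjusted p-value under 0.05, and 0 of 4 members among the latter. The genotypes' responses to FAEE-SAP differed for *Pfkfb3* by 0.16 on the log2 scale (SE 0.61, -1.28 to 1.59, adjusted p = 0.939, limma, interaction term), and by -0.52 as deposited. The scaled value was below 0 without cKO saline replicate 1 (-0.44), WT FAEE-SAP replicate 1 (-0.23), or cKO FAEE-SAP replicate 2 (-0.18), and rose as far as 0.74 without cKO saline replicate 2. No member was called in the interaction, where 0.0719% of genes were called, and none of the 4 had an unadjusted p-value under 0.05, beside 1398 of all genes.

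Without scaling, *Pfkfb3*, *Pfkfb4*, and *Tigar* passed the threshold. *Pfkfb3* was 1.77 higher on the log2 scale with FAEE-SAP in WT (adjusted p = 0.00294, limma), *Pfkfb4* was 1.52 higher (adjusted p = 0.0106, limma), and *Tigar* was 1.27 higher (adjusted p = 0.0183, limma). *Pfkfb4* and *Tigar* passed the filter on low values (at least 0.5 RPKM in at least 2 libraries) only through the FAEE-SAP libraries, so a difference was partly built into their values on either scale. These 3 calls stand against 65.9% of all genes called higher in the same comparison, and against a median of 1.24 over all genes. The same 3 members were called over both genotypes (1.51, 1.14, and 1.07), beside 40.4% of all genes called higher. In cKO against WT with FAEE-SAP, *Pfkfb3* was the 1 member called, at -1.08 (adjusted p = 0.0401, limma), and 39.6% of all genes were called lower, with a median of -0.91.

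**Figure D2:**
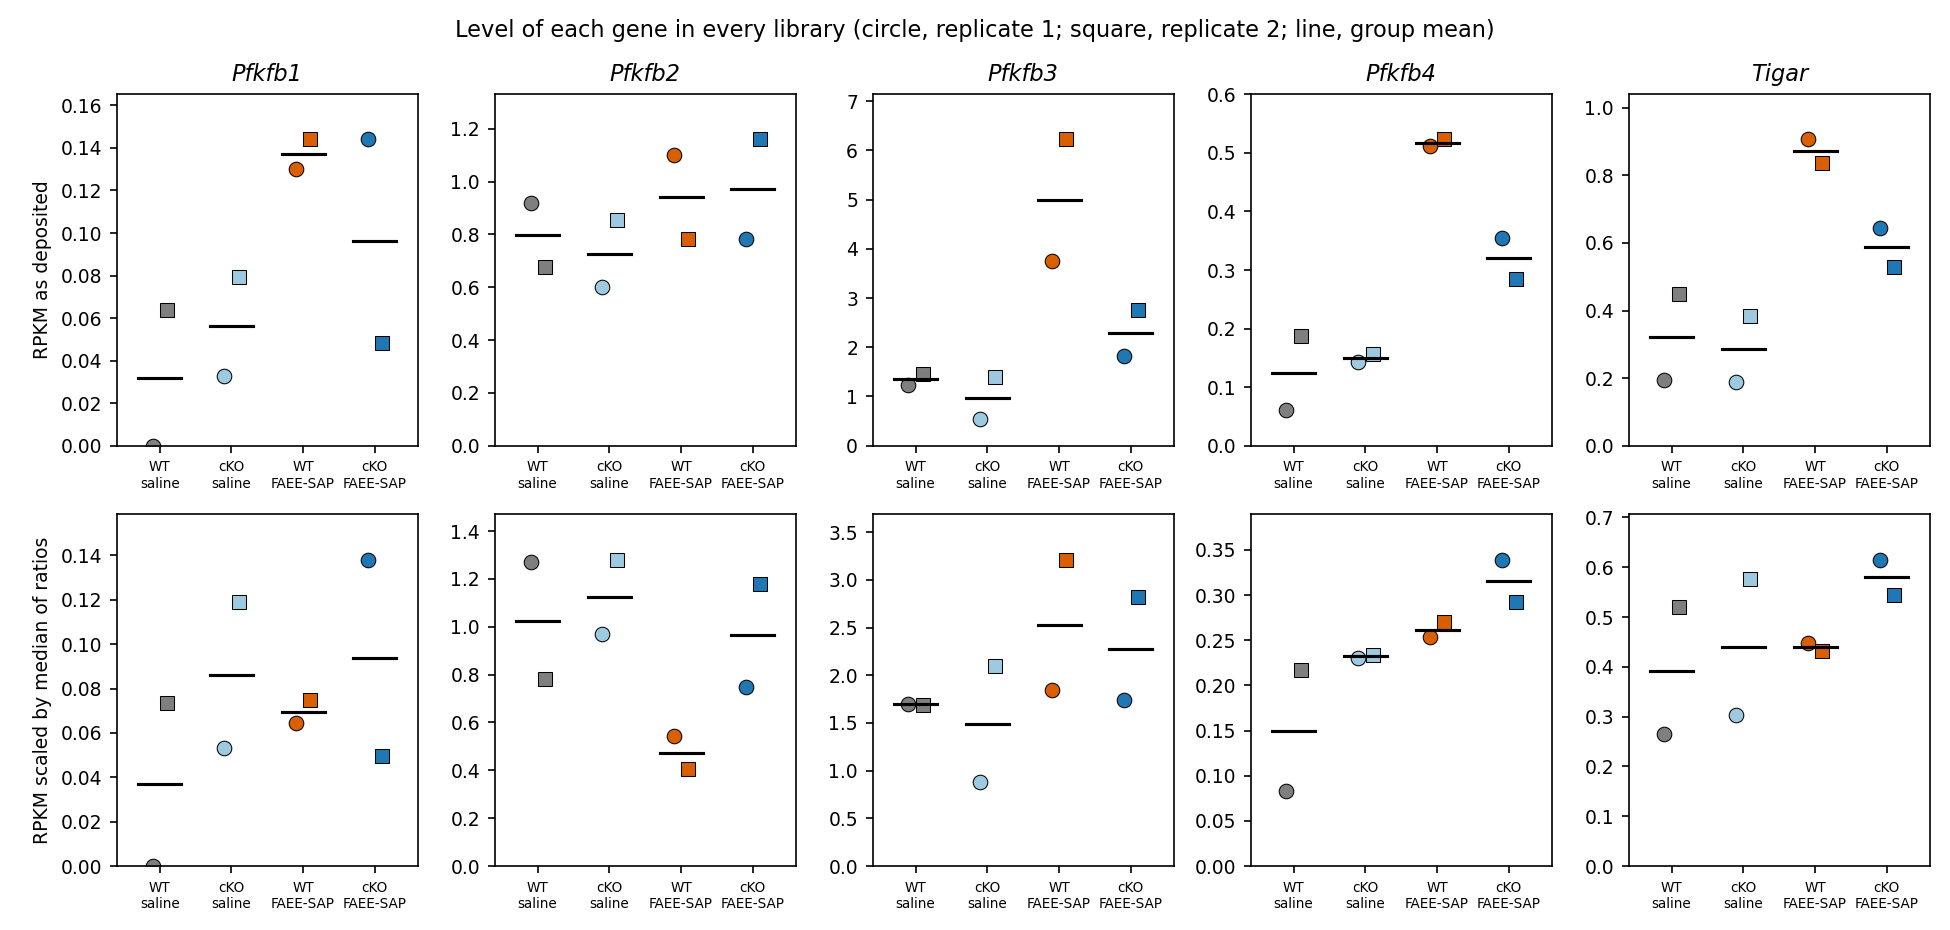
RPKM of the 5 members in each of the 8 libraries, as deposited (upper row) and after scaling by the median of ratios (lower row), with replicate 1 as a circle, replicate 2 as a square, and the group mean as a line. As deposited, *Pfkfb3* reaches 3.75 and 6.22 in WT FAEE-SAP, and after scaling its WT and cKO FAEE-SAP libraries overlap, at 1.85 and 3.21 against 1.74 and 2.82.

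*Pfkfb2* had its lowest scaled level in WT FAEE-SAP. As deposited it stayed between 0.602 and 1.16 RPKM in all 8 libraries, on 134 to 259 reads. WT saline gave 0.921 and 0.677, cKO saline 0.602 and 0.854, WT FAEE-SAP 1.10 and 0.784, and cKO FAEE-SAP 0.783 and 1.16, with overlap between all groups. After scaling, *Pfkfb2* was 1.27 and 0.782 (WT saline), 0.97 and 1.28 (cKO saline), 0.542 and 0.405 (WT FAEE-SAP), and 0.748 and 1.18 (cKO FAEE-SAP). Both WT FAEE-SAP libraries lay below every other library. A gene's groups not overlapping was common, however, at 29.1% of genes in this direction for FAEE-SAP against saline in WT.

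The log2 fold change of *Pfkfb2* with FAEE-SAP was -0.98 in WT (SE 0.32, 95% interval -1.76 to -0.19, adjusted p = 0.118, limma) and -0.19 in cKO (SE 0.27, -0.90 to 0.52, adjusted p = 0.835, limma). The difference between these responses was 0.73 (SE 0.45, -0.32 to 1.77, adjusted p = 0.538, limma, interaction term). With FAEE-SAP, *Pfkfb2* was 0.90 higher in cKO than in WT on the log2 scale (SE 0.33, 0.10 to 1.70, adjusted p = 0.217, limma), without overlap of the groups, as were 26.5% of all genes in that direction. With saline the difference was 0.12 (SE 0.28, -0.60 to 0.84, adjusted p = 0.999, limma). Over both genotypes the treatment difference was -0.58 (SE 0.25, adjusted p = 0.183, limma), and over both treatments the genotype difference was 0.51 (SE 0.25, adjusted p = 0.484, limma). Without cKO FAEE-SAP replicate 2, the genotype difference with FAEE-SAP was 0.58, that over both treatments 0.32, and the difference between responses 0.42, and without WT saline replicate 1 the difference between responses was 0.41. The sign turned in cKO without cKO FAEE-SAP replicate 1 (0.11), and for cKO against WT with saline without WT saline replicate 2 (-0.17) or cKO saline replicate 2 (-0.06). None passed the threshold. As deposited the treatment difference in WT had the opposite sign (0.21), the genotype difference with FAEE-SAP was 0.03, and the difference between responses was 0.16.

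*Pfkfb4* was low throughout, between 7 and 70 reads per library. As deposited it was 0.0604 and 0.188 RPKM (WT saline), 0.143 and 0.156 (cKO saline), 0.512 and 0.523 (WT FAEE-SAP), and 0.355 and 0.285 (cKO FAEE-SAP). Scaled, it was 0.0829 and 0.217 (WT saline), 0.23 and 0.234 (cKO saline), 0.253 and 0.27 (WT FAEE-SAP), and 0.339 and 0.292 (cKO FAEE-SAP). *Pfkfb4* was the only member with all 4 FAEE-SAP libraries above all 4 saline libraries on both scales. Such a separation was seen in 6.54% of genes after scaling and in 45.4% as deposited. Only its WT FAEE-SAP libraries were over the filter's 0.5 RPKM.

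The log2 fold change of *Pfkfb4* with FAEE-SAP was 0.63 in WT (SE 0.38, 95% interval -0.31 to 1.57, adjusted p = 0.341, limma) and 0.45 over both genotypes (SE 0.24, -0.10 to 1.01, adjusted p = 0.281, limma). In cKO, where *Pfkfb4* did not pass the filter, the fit without a filter gave 0.30 (SE 0.21, adjusted p = 0.76, limma). With FAEE-SAP it was 0.21 higher in cKO than in WT on the log2 scale (SE 0.30, -0.53 to 0.94, adjusted p = 0.756, limma), and 0.56 lower as deposited. Over both treatments the scaled log2 difference of *Pfkfb4* between cKO and WT was 0.33 (SE 0.24, adjusted p = 0.606, limma), and its interaction was -0.26 (SE 0.48, adjusted p = 0.854, limma). The WT treatment difference was 0.21 without WT saline replicate 1 and 1.10 without WT saline replicate 2. Without WT saline replicate 1, the treatment difference over both genotypes was 0.27, the genotype difference over both treatments 0.14, and the interaction 0.13. Quantile normalization brought the WT treatment difference to -0.02, so the direction of *Pfkfb4* in WT was not the same under every scaling.

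*Pfkfb1*, the liver form, was at the edge of detection. It had 0 reads in WT saline replicate 1, where 3 reads would have given 0.026 RPKM, and 5 to 19 reads in the other libraries. As deposited it was 0 and 0.0638 RPKM (WT saline), 0.033 and 0.0793 (cKO saline), 0.13 and 0.144 (WT FAEE-SAP), and 0.144 and 0.0483 (cKO FAEE-SAP). It did not pass the filter in any comparison, and its scaled groups overlapped in all 6 comparisons of groups. As deposited both WT FAEE-SAP libraries (12 and 19 reads) were above both WT saline libraries (0 and 7 reads), as in 88.9% of genes tested. Scaled differences of *Pfkfb1* were not detectable at this depth, since 5 reads have a 95% Poisson interval of 1.6 to 11.7 reads, which covers counting error only. Hepatocyte markers were low too, with 4 genes summing to 1.90 to 8.56 scaled RPKM in 7 libraries. They summed to 18.6 in cKO saline replicate 1, where *Apoa1* alone was 10.5, and this was also the library with the lowest *Pfkfb3*. The part of these transcripts in that value was not tested.

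*Tigar* lay between *Pfkfb2* and *Pfkfb4* in most libraries. Its deposited RPKM was 0.193 and 0.45 (WT saline), 0.188 and 0.383 (cKO saline), 0.906 and 0.835 (WT FAEE-SAP), and 0.644 and 0.53 (cKO FAEE-SAP), on 20 to 100 reads. The deposited values put all FAEE-SAP libraries above all saline libraries, as in 45.4% of genes tested. Scaled, *Tigar* was 0.265 and 0.52 (WT saline), 0.303 and 0.576 (cKO saline), 0.448 and 0.431 (WT FAEE-SAP), and 0.615 and 0.544 (cKO FAEE-SAP). Replicate 1 was the lower library in both saline groups, and the saline and FAEE-SAP groups overlapped in each genotype.

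The log2 fold change of *Tigar* with FAEE-SAP was 0.19 in WT (SE 0.34, 95% interval -0.66 to 1.03, adjusted p = 0.773, limma) and 0.39 in cKO (SE 0.33, -0.46 to 1.24, adjusted p = 0.709, limma). With FAEE-SAP both cKO libraries were above both WT libraries after scaling, as in 26.5% of genes tested, by 0.34 on the log2 scale (SE 0.26, -0.31 to 0.99, adjusted p = 0.532, limma). As deposited the same comparison gave -0.50, without overlap in the opposite direction, as in 81.3% of all genes. Over both genotypes the scaled log2 difference of *Tigar* between FAEE-SAP and saline was 0.28 (SE 0.24, adjusted p = 0.507, limma), and its interaction was 0.20 (SE 0.50, adjusted p = 0.898, limma). The difference in WT was -0.21 without WT saline replicate 1 and 0.58 without WT saline replicate 2, and the interaction was -0.19 without WT saline replicate 2 or without cKO saline replicate 1. The difference in cKO was 0.03 without cKO saline replicate 1 and 0.76 without cKO saline replicate 2, and that over both genotypes ranged from 0.11 (without cKO saline replicate 1) to 0.45 (without WT saline replicate 2). *Tigar* thus had no direction between the genotypes that both scales share.

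**Figure D3:**
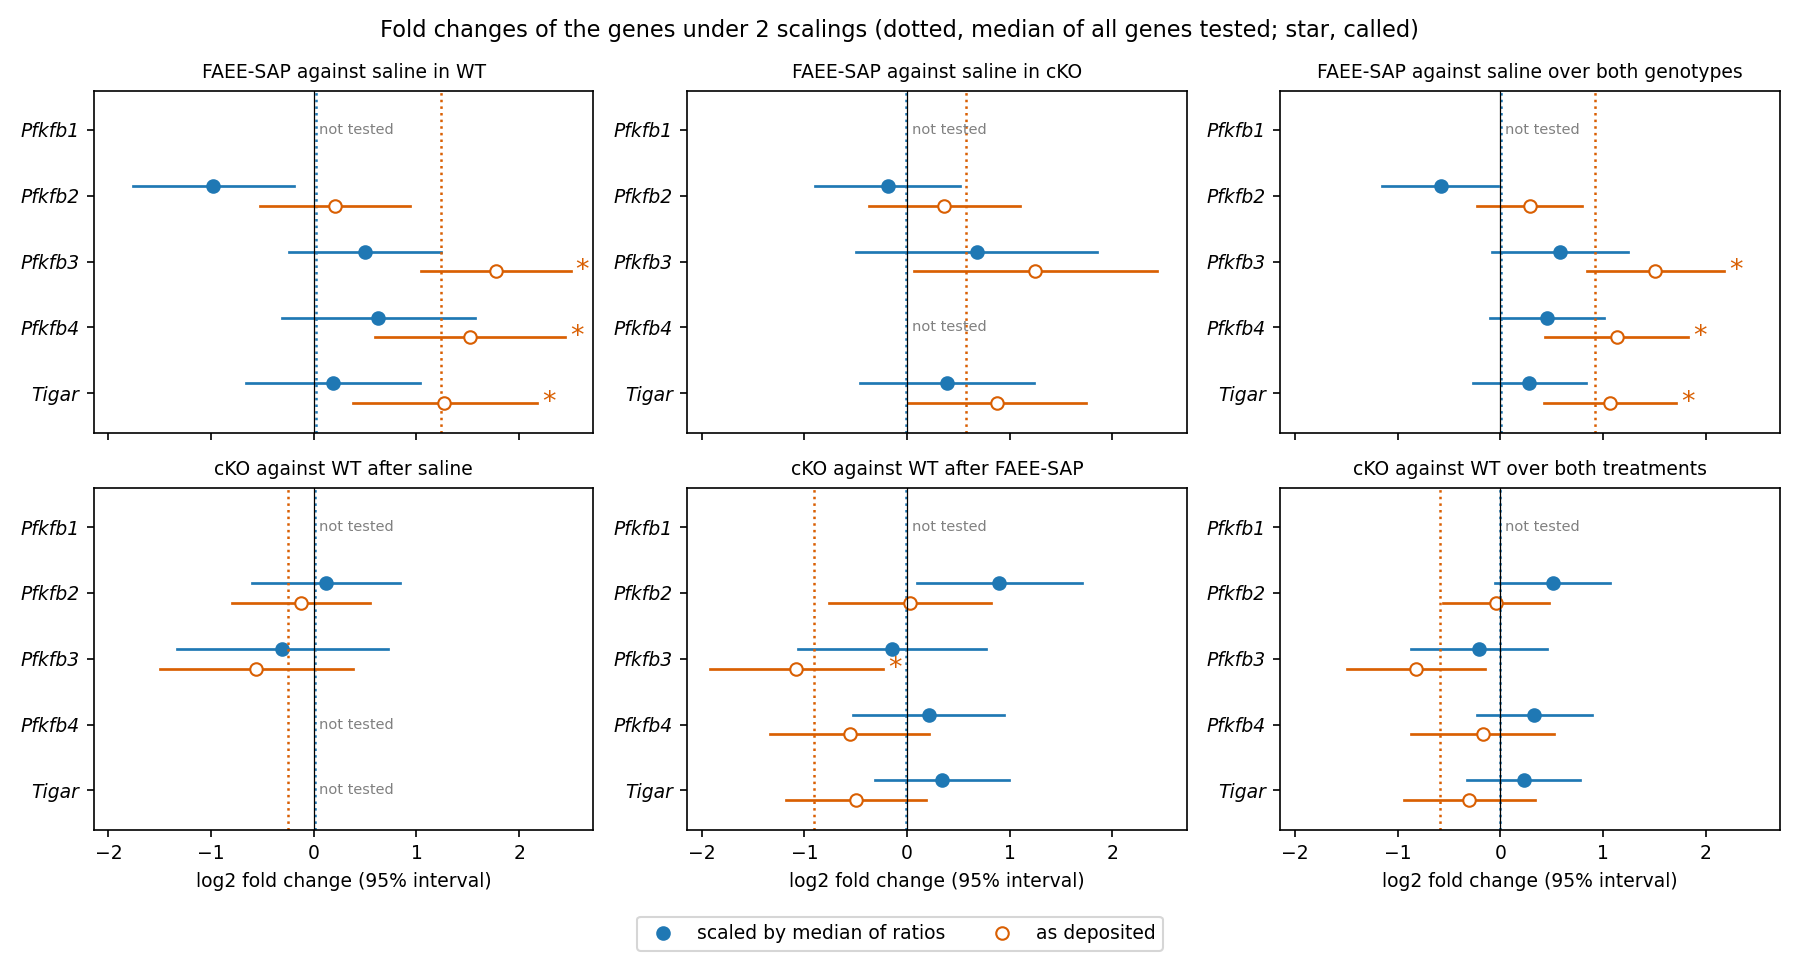
Log2 fold changes of the members with 95% intervals in 6 comparisons, scaled (blue, filled) and as deposited (orange, open), with dotted lines at the median of all genes tested. Scaled intervals of *Pfkfb3* include 0 in all 6 panels, and as deposited in WT *Tigar* lies at 1.27 beside a median of 1.24 for all genes tested, with *Pfkfb2* at 0.21.

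Shares of the 4 *Pfkfb* transcripts within a library do not depend on a scaling by 1 factor per library, which cancels. *Pfkfb3* made up 41.3% to 61.1% of the summed *Pfkfb* RPKM in the saline libraries and 58.6% to 81.1% in the FAEE-SAP libraries. The share of *Pfkfb2* was 41.5% and 28.3% (WT saline), 45.5% and 34.4% (cKO saline), 20% and 10.2% (WT FAEE-SAP), and 25.3% and 27.2% (cKO FAEE-SAP). All 4 FAEE-SAP shares of *Pfkfb2* were below all 4 saline shares, with 27.2% and 28.3% as the nearest values across the groups.

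The share of *Pfkfb2* was 20.7% ± 7.61 (SD, n = 4) with FAEE-SAP and 37.4% ± 7.60 (SD, n = 4) with saline, a difference of -16.7 percentage points. The two-sided exact permutation test over the 70 regroupings gave p = 0.0286, the smallest it can give with 4 libraries against 4. Adjusted over the 10 share tests (5 measures, treatment and genotype), the exact permutation p was 0.286, and the result did not pass the correction, which 1 test at the smallest possible p could not have passed on its own. The share of *Pfkfb3* was 68.2% ± 9.46 with FAEE-SAP and 53.6% ± 8.57 with saline (SD, n = 4 each), a difference of 14.6 points (exact permutation p = 0.0571, adjusted 0.286), and its groups overlapped.

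No share differed between genotypes without overlap. *Pfkfb3* made up 55.2% ± 10 in cKO and 66.6% ± 10.9 in WT (SD, n = 4 each), a difference of -11.3 points (exact permutation p = 0.2, adjusted 0.571). *Pfkfb4* took 8.58% ± 2.26 with FAEE-SAP and 6.91% ± 3.36 with saline, a difference of 1.67 points (n = 4 each, exact permutation p = 0.457, adjusted 0.571). Between genotypes the share of *Pfkfb4* was 8.80% ± 2.68 in cKO and 6.68% ± 2.84 in WT (SD, n = 4 each), a difference of 2.12 points (exact permutation p = 0.343, adjusted 0.571). The share of *Pfkfb2* was 8.08 points higher in cKO (n = 4 each, exact permutation p = 0.343, adjusted 0.571). Relative to the summed *Pfkfb* RPKM, *Tigar* stood at 8.67% and 18.8% (WT saline), 14.2% and 15.4% (cKO saline), 16.5% and 10.9% (WT FAEE-SAP), and 20.8% and 12.5% (cKO FAEE-SAP). No ordering of the groups was visible in these values (treatment difference of log2 ratios 0.10, n = 4 each, exact permutation p = 0.771; genotype difference 0.24, exact permutation p = 0.457).

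The ratio of *Pfkfb3* to *Pfkfb2* compares all transcripts of the 2 genes, and in cKO those of *Pfkfb3* can include ones without the floxed exons. The ratio was 1.35 and 2.16 (WT saline), 0.907 and 1.63 (cKO saline), 3.41 and 7.94 (WT FAEE-SAP), and 2.32 and 2.38 (cKO FAEE-SAP). Only cKO saline replicate 1 had less *Pfkfb3* than *Pfkfb2*, and the 4 FAEE-SAP ratios were all above the 4 saline ratios. These ratios restate the 2 shares and were not tested again.

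**Figure D4:**
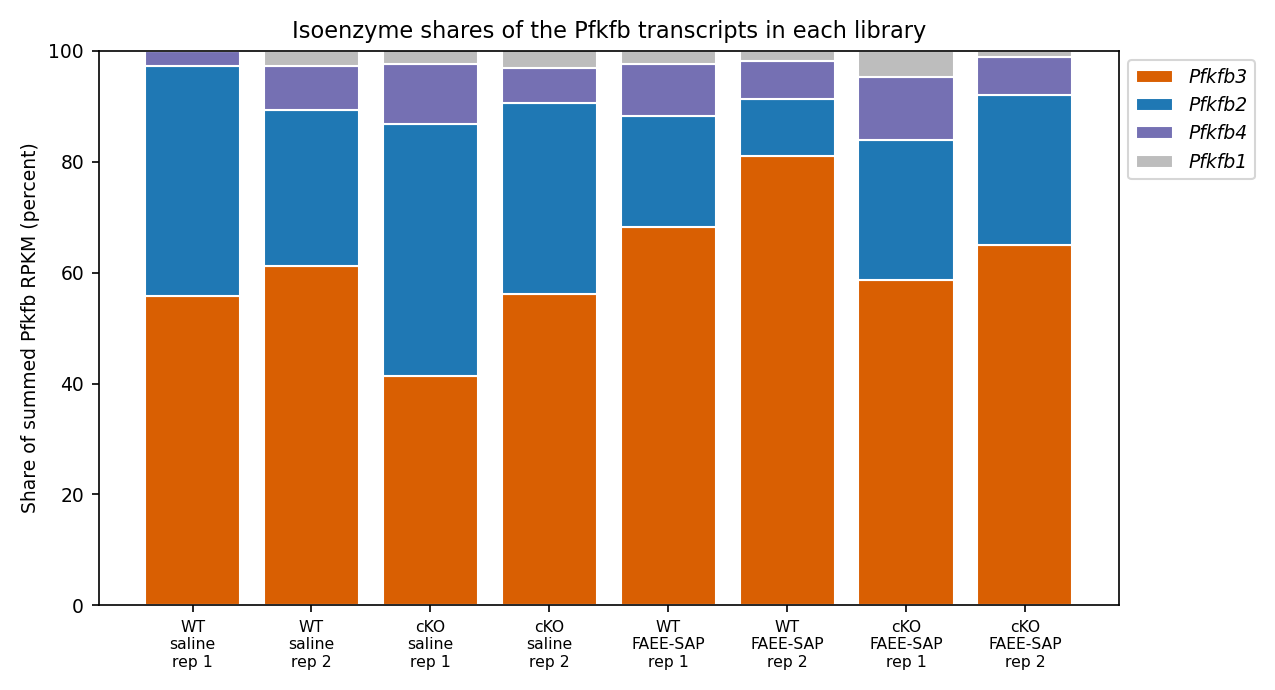
Share of each isoenzyme in the summed *Pfkfb1* to *Pfkfb4* RPKM of every library, as stacked bars in percent. The blue *Pfkfb2* part is 28.3% to 45.5% in the 4 saline libraries and 10.2% to 27.2% in the 4 FAEE-SAP libraries.

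The order of the members by RPKM was *Pfkfb3*, *Pfkfb2*, *Tigar*, *Pfkfb4*, and *Pfkfb1* in 6 of the 8 libraries. *Pfkfb3* exceeded 54.1% to 82.5% of the genes above 0 in a library, *Pfkfb2* 43.7% to 61.3%, *Tigar* 31.2% to 45.7%, and *Pfkfb4* 17.6% to 38.3%. *Pfkfb3* and *Pfkfb2* changed places in cKO saline replicate 1, and *Tigar* was slightly above *Pfkfb2* in WT FAEE-SAP replicate 2 (0.835 against 0.784 RPKM). The RPKM ranges of these neighbours overlapped in the 2 groups concerned, as did those of *Pfkfb4* and *Pfkfb1* in WT saline, and no other neighbours overlapped within a group.

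The genes around the same sugar phosphates were taken from fixed lists, chosen from general knowledge. Of 14 genes at the fructose 6-phosphate node, 11 were tested with FAEE-SAP against saline in WT. Of these, 4 were higher and 7 lower, and 2 were called, both lower, beside 6.93% of all genes called in either direction. *Hk1* and *Hk3*, among the higher, and *Pfkp*, among the lower, passed the filter only through the FAEE-SAP libraries. A rise was therefore partly built into their values. The median log2 fold change of the 11 genes was -0.12, beside 0.02 over all genes tested. *Fbp2*, the muscle fructose 1,6-bisphosphatase, which fructose 2,6-bisphosphate inhibits, fell from 3.32 and 5.32 to 0.862 and 0.357 scaled RPKM (log2 fold change -2.75, SE 0.43, adjusted p = 0.024, limma). *Pfkm*, the muscle-type phosphofructokinase 1 that fructose 2,6-bisphosphate activates, fell from 1.78 and 1.90 to 0.721 and 0.566 (log2 fold change -1.42, SE 0.24, adjusted p = 0.0276, limma). As deposited, *Pfkm* was at -0.19 and was not called.

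In cKO, *Fbp2* was 6.21 and 2.20 with saline and 3.01 and 0.801 with FAEE-SAP (log2 fold change -1.15, SE 0.77, adjusted p = 0.647, limma), and its groups overlapped. *Pfkm* was 1.86 and 1.70 with saline and 1.32 and 1.40 with FAEE-SAP in cKO (-0.33, SE 0.17, adjusted p = 0.58, limma). The interaction for *Pfkm* was 1.03 on the log2 scale (SE 0.26, adjusted p = 0.23, limma) and that for *Fbp2* was 1.51 (SE 1, adjusted p = 0.572, limma), so neither response was shown to differ between genotypes. *Pfkl* and *Pfkp*, the other phosphofructokinase 1 genes, were at 0.38 and -0.12 with FAEE-SAP in WT and were not called. *Fbp1*, the liver fructose 1,6-bisphosphatase, was at 0 in 5 of 8 libraries and was not tested. No gene of the node was called in the other 6 comparisons, beside 0% to 2.72% of all genes. In these, 0 to 3 of the node's genes tested had an unadjusted p-value under 0.05 (limma), beside 187 to 2850 of all genes.

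Of 7 genes at the entry of the pentose phosphate pathway, the route that TIGAR favors, all were tested and 1 was called with FAEE-SAP in WT, beside the same 6.93% of all genes. *Pgd*, which carries out the second oxidative step, rose from 1.25 and 1.27 to 2.82 and 3.33 scaled RPKM (log2 fold change 1.23, SE 0.21, adjusted p = 0.0302, limma). In cKO it was 1.21 and 1.42 with saline and 1.85 and 1.83 with FAEE-SAP (0.48, SE 0.18, adjusted p = 0.519, limma), also without overlap, as for 19.6% of genes, and the interaction was -0.76 (SE 0.25, adjusted p = 0.308, limma). *G6pdx*, the first step, was at 0.42 in WT (SE 0.27, adjusted p = 0.38, limma). The median of the 7 genes was -0.09 in WT and 0.05 in cKO.

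The IP3 receptors are calcium channels of the endoplasmic reticulum on which the study focused. Of their 3 genes, 0 were called in any of the 7 comparisons (limma), beside 0% to 6.93% of all genes tested. *Itpr3* was at 2.19 and 2.19 scaled RPKM (WT saline), 1.92 and 2.84 (cKO saline), 2.43 and 2.09 (WT FAEE-SAP), and 2.21 and 2.56 (cKO FAEE-SAP). *Itpr2* was at 1.46 and 1.51 (WT saline), 1.71 and 1.82 (cKO saline), 0.995 and 0.729 (WT FAEE-SAP), and 1.21 and 1.25 (cKO FAEE-SAP). After scaling, all FAEE-SAP values of *Itpr2* were below all its saline values, by -0.61 on the log2 scale over both genotypes (SE 0.14, adjusted p = 0.0508, limma), and 7.55% of all genes were separated in this way. As deposited the order turned, with 1.06 to 1.31 RPKM with saline and 1.22 to 2.01 with FAEE-SAP, and the groups overlapped. *Itpr1* was at -0.60 in WT (SE 0.31, adjusted p = 0.269, limma) and at -0.02 in cKO. At an unadjusted p-value under 0.05 there were 0 or 1 of the 3 genes in each comparison, beside 187 to 3013 of all genes.

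Of 12 regulators that act on PFKFB enzymes or their genes, all were tested with FAEE-SAP in WT, and 8 were higher, 4 lower, and 1 called, a share near the 6.93% over all genes. *Mapkapk2*, a stress kinase that phosphorylates PFKFB3, rose from 8.15 and 6.07 to 19.1 and 21.4 scaled RPKM in WT (log2 fold change 1.51, SE 0.21, adjusted p = 0.018, limma). It was 5.79 and 9.09 with saline and 7.38 and 9.80 with FAEE-SAP in cKO (0.25, SE 0.29, adjusted p = 0.781, limma), and the interaction was -1.29 (SE 0.38, adjusted p = 0.279, limma). *Hif1a*, the oxygen-regulated factor that induces *Pfkfb3* and *Pfkfb4*, was 0.99 higher in WT on the log2 scale (SE 0.21, adjusted p = 0.0487, limma), just under the 2-fold minimum. The 13 hypoxia-inducible genes did not move one way in WT after scaling. Of 11 tested, 5 were higher and 6 lower, from *Adm* (1.38) to *Vegfa* (-1.09). None was called, with 5 at an unadjusted p-value under 0.05 (limma), beside 3013 of all 10894 genes. *Adm* and *Car9*, both among the higher, passed the filter in WT only through the FAEE-SAP libraries, so a rise was partly built into their values. The median of the 11 was -0.04 scaled and 1.27 as deposited, beside 1.24 for all genes tested. In cKO, where 0.0531% of all genes were called, 1 was called, *Car9*, a carbonic anhydrase, which rose from 0.278 and 0.312 to 3.31 and 3.6 scaled RPKM (log2 fold change 3.12, SE 0.18, adjusted p = 0.0386, limma). *Car9* passed the filter there only through the FAEE-SAP libraries. In WT it was 0.273 and 0.385 with saline and 1.72 and 0.274 with FAEE-SAP (0.97, SE 0.74, adjusted p = 0.451, limma), and the interaction was 2.21 (SE 0.90, adjusted p = 0.377, limma).

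These calls depended on the libraries and on the settings. *Pfkm* and *Pgd* were no longer called when any 1 of the 4 WT libraries was left out (adjusted p = 0.0614 to 0.136 and 0.0612 to 0.134, limma). *Fbp2* was lost without WT saline replicate 2 (0.0578) or WT FAEE-SAP replicate 2 (0.101), *Mapkapk2* without WT FAEE-SAP replicate 1 (0.0614) or 2 (0.119), and *Car9* without cKO saline replicate 1 (0.22) or 2 (0.146). Without either cKO FAEE-SAP library, *Car9* did not pass the filter and was not tested. Without a filter on low values, *Fbp2* (adjusted p = 0.0641, limma), *Pfkm* (0.0723), *Pgd* (0.0642), and *Car9* (0.305) were not called. With replicate number as a block, *Pfkm* (adjusted p = 0.0629, limma) and *Pgd* (0.0708) were not called. In one model of all 8 libraries, *Fbp2* (adjusted p = 0.0536, limma) and *Car9* (0.146) were not called. With a pseudocount of 1, *Pfkm* (-0.88) and *Pgd* (0.91) were under the 2-fold minimum. As deposited, *Fbp2* (-1.51), *Pgd* (2.49), and *Mapkapk2* (2.82) were called in WT, beside a median of 1.24 over all genes. *Car9* (3.63) was called in cKO as deposited, beside a median of 0.57.

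**Figure D5:**
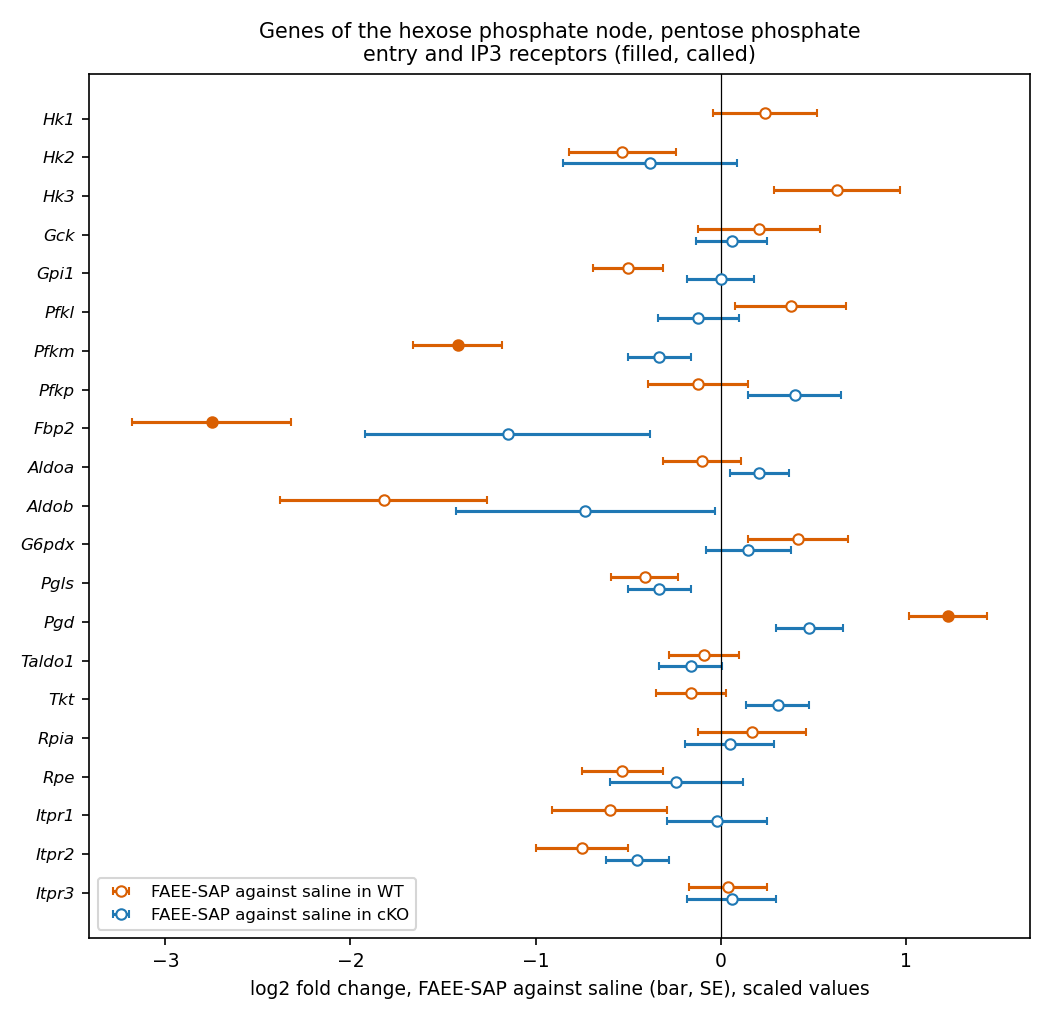
Log2 fold change (point) and SE (bar) of FAEE-SAP against saline after scaling, in WT (orange) and cKO (blue), for the tested genes of the fructose 6-phosphate node, the pentose phosphate entry, and the IP3 receptors. Filled points were called, namely *Fbp2* (-2.75), *Pfkm* (-1.42), and *Pgd* (1.23), all in WT.

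A core hypoxia-response motif, ACGTG on either strand, was searched in the 250 bases before the RefSeq start sites of the 5 members (GRCm38.p6), because *Pfkfb3* and *Pfkfb4* are known targets of hypoxia-inducible factors. It was present in 4 of 11 member promoters, 2 of 2 for *Pfkfb3* and 2 of 3 for *Pfkfb2*, and in 5444 of all 32851 promoters (16.6%). The matches read along the gene are shown with the motif in capitals. Matches on the other strand overlap ones shown and are not printed. They lie 53 bases before the *Pfkfb3* start at 11502090 and 22 bases before the *Pfkfb2* start at 130715821.
Pfkfb3, 60 bases before the start at chromosome 2, 11553929: ctccgcgccgtgACGTGccaagctgtgac
Pfkfb3, 52 bases before the start at chromosome 2, 11502090: acccttctctccACGTGaaagggggctgg
Pfkfb2, 21 bases before the start at chromosome 1, 130715821: gccaagcgccccACGTGactcgccccaac
Pfkfb2, 172 bases before the start at chromosome 1, 130714576: gtgcagctgtatACGTGaggagtcaggtt
No match was found in the windows of *Pfkfb4*, *Tigar*, or *Pfkfb1*. The members with a match, *Pfkfb3* and *Pfkfb2*, had opposite signs with FAEE-SAP after scaling (0.58 and -0.58 over both genotypes, neither called), whereas as deposited both were above 0 (1.51, called, and 0.29, not called).

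The makeup of the tissue moved with the groups, and its part in the values of the members was not tested. Acinar markers were all detected, and 8 of 8 summed to 163000 to 224000 scaled RPKM with saline, 54700 and 56000 for WT with FAEE-SAP, and 132000 and 147000 for cKO with FAEE-SAP. As deposited these sums were 138000 to 147000 RPKM, 111000 and 108000, and 138000 and 144000, so the difference was smaller on that scale. Neutrophil scaled markers (8 genes) summed to 1.27 to 3.72 with saline, 58.6 and 53.1 for WT with FAEE-SAP, and 19.8 and 12.5 for cKO with FAEE-SAP. Scaled duct markers (5 genes) went from 6.73 to 10.7 in saline to 13.9 and 13.1 in WT FAEE-SAP, and islet markers (6 genes) from 270 to 370 with saline to 163 and 215 for WT with FAEE-SAP and 416 and 428 for cKO with FAEE-SAP. The islet sum of WT with FAEE-SAP was the higher one as deposited, at 329 and 417 RPKM against 196 to 235 with saline. None of these markers was at 0 in every library. The scaled levels of *Pfkfb2* and acinar markers were both lowest in the 2 WT FAEE-SAP libraries. In whole pancreas, fewer cells of a type and less RNA per cell cannot be told apart for any member.

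Likeness of pattern was described by Pearson's r of log2(scaled RPKM + 0.1) over the 8 libraries, whose tissue makeup moved with the groups and whose totals were 22.9 to 37.7 M reads, among 11132 other genes. *Pfkfb2* was most like *Strbp* (0.995), *Adk* (0.986), and *Hpn* (0.984), and 299 genes had r over 0.9 with it. *Pfkfb3* was most like *Vcam1* (0.969), *Baz2a* (0.958), and *Pdcd7* (0.95), and 36 genes had r over 0.9. *Pfkfb4* was most like *Pon2* (0.948), *Fcgr2b* (0.945), and *Sepn1* (0.943), and *Tigar* was most like *Atp1b3* (0.956), *Mki67* (0.951), and *Glipr1* (0.948), with 15 and 8 genes over 0.9. Among the members themselves r ranged from -0.42 for *Pfkfb2* with *Pfkfb4* to 0.76 for *Pfkfb4* with *Tigar*.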

How the data were processed

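RNA-Seq of mouse pancreas was used, with 2 libraries in each of 4 groups taken from the labels. The authors deposited RPKM per gene. Per the study's methods and the labels, directional paired-end libraries were filtered with fastp and mapped to GRCm38.p6 with CLC Genomics Workbench, and the calculation of RPKM is not given in the sources used here. Reads per gene were worked out from RPKM and GENCODE vM21 exonic lengths (46319 genes, 95.1%, matched by symbol). Library totals of 22.9 to 37.7 M reads gave whole reads within 0.1 for 84.2% to 85.6% of the values under 20 reads. *Pfkfb4* gave whole reads only with a length of 4086 bases, against 4875 annotated, and *Pfkfb2* did not give whole reads at its annotated length, so their read numbers and their RPKM relative to the other members are approximate. Whether reads or read pairs were counted was not settled. No 2 libraries held the same values, and log2 values within a group correlated at 0.947 to 0.959 across genes. The p-values measure only the spread between the libraries deposited.

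Each comparison was scaled by the median of ratios, and genes with at least 0.5 RPKM in at least 2 of its libraries were fitted with limma 3.58.1 (R 4.3.3) on log2(scaled RPKM + 0.1) with a trended prior and Benjamini-Hochberg adjustment over all genes tested. The scaled levels printed come from 1 scaling of all 8 libraries. The fit was also run on simulated data with the same noise for every gene. That does not cover low read numbers or the shift between these groups, so nothing is drawn from it here. Shares were compared by two-sided exact permutation in Python 3.11.15. The members, the gene and marker lists, and the tests were chosen with earlier results of these data known. The genes named are the members, the genes of the node, IP3 receptor, and pentose phosphate lists, called or most changed genes of the other lists, and the 3 genes most like each member. Alternatives were values as deposited, trimmed mean of log ratios, quantile normalization, no filter or 1 RPKM, pseudocounts of 1 and 0.01, no trend, all 8 libraries in 1 model, a replicate block, and each library left out. Other assays were not analysed here.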

Additional observations from a re-analysis of the deposited data

How the results depend on the processing

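No member was called under any scaling other than the values as deposited, or under any filter, pseudocount, variance model, block, or omission of 1 library. With the values as deposited, 1 member was called for cKO against WT with FAEE-SAP, 3 for FAEE-SAP against saline in WT, and 3 over both genotypes. *Pfkfb3* was then at -1.08, 1.77, and 1.51 on the log2 scale. Of the alternatives of each member, 101 of 112 for *Pfkfb3*, 101 of 109 for *Pfkfb2*, 62 of 68 for *Pfkfb4*, and 79 of 87 for *Tigar* kept direction and side of the threshold, as did 96 of 100 for the shares.

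As deposited, signs turned for *Pfkfb4* (-0.56) and *Tigar* (-0.50) in cKO against WT with FAEE-SAP, *Pfkfb2* with saline (-0.12), *Pfkfb2* for FAEE-SAP against saline in WT (0.21), in cKO (0.36), and over both genotypes (0.29), *Pfkfb3* (-0.52) and *Tigar* (-0.40) in the interaction, and *Pfkfb2* (-0.04), *Pfkfb4* (-0.17), and *Tigar* (-0.30) in cKO against WT over both treatments. Quantile normalization put *Pfkfb4* at -0.02 for FAEE-SAP against saline in WT.

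With 1 library left out in turn, *Pfkfb3* ranged from -0.55 to 0.23 in cKO against WT with FAEE-SAP (higher without WT replicate 2 or cKO replicate 1), from -0.88 to 0.26 with saline and from -0.44 to 0.03 over both treatments (higher without cKO saline replicate 1), and from -0.44 to 0.74 in the interaction (below 0 without cKO saline replicate 1, WT FAEE-SAP replicate 1, or cKO FAEE-SAP replicate 2). *Pfkfb2* ranged from -0.17 to 0.39 in cKO against WT with saline and from -0.42 to 0.11 for FAEE-SAP in cKO. *Tigar* ranged from -0.21 to 0.58 for FAEE-SAP in WT and from -0.19 to 0.58 in the interaction, and *Pfkfb4* from -0.67 to 0.13 in the interaction. The treatment difference of the *Pfkfb1* share ranged from -0.289 to 0.884 percentage points, and that of the log2 ratio of *Tigar* to the *Pfkfb* sum from -0.13 to 0.25. A group left with 1 library was assumed to vary like the others.

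The labels tie no replicate number to a shared litter or day, so the numbers were not taken as pairs. Across genes, deviations of same-numbered libraries correlated at -0.522 to -0.175 between WT saline and the other groups. Among the other groups they correlated at 0.184 to 0.399. Whether the numbers mark shared conditions was not tested. With replicate number as a block, 0 members were called in all 7 comparisons (limma), and *Pfkfb3* was at -0.15 in cKO against WT with FAEE-SAP (adjusted p = 0.705, limma). Counts of all genes called under the block were 568 for cKO against WT with FAEE-SAP (140 without it), 442 for FAEE-SAP in WT (755), 52 in cKO (5), 164 over both genotypes (303), 0 in the interaction (8), and 0 in the other comparisons. With the WT saline numbers exchanged, a block chosen after seeing the data, they were 822 in WT, 411 over both genotypes, 68 in the interaction, and 0 in cKO against WT with saline and over both treatments, the remaining comparisons holding no WT saline library. Over the other alternatives these counts ran from 0 to 4427 for cKO against WT with FAEE-SAP, 97 to 7270 for FAEE-SAP in WT, 0 to 15 in cKO, 0 to 791 in the interaction, and 32 to 4528 over both genotypes, the highest being as deposited. Members with under 20 reads in a library (*Pfkfb1* and *Pfkfb4*) are limited by depth.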
